A study of Chlorocebus sabaeus with 45 samples.

Results

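Mitochondria carry their own ribosome, the mitoribosome, which translates the few proteins still encoded by mitochondrial DNA. These proteins are core subunits of the respiratory chain and of ATP synthase. The proteins of the mitoribosome itself are encoded in the nucleus, made in the cytosol and imported, and they assemble with mitochondrially encoded rRNA into a large and a small subunit. The large subunit forms peptide bonds and the small subunit decodes mRNA. Among the cells of blood, mature red cells have lost their mitochondria, reticulocytes are still clearing them, and lymphocytes enlarge their mitochondrial mass upon activation.

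The genes described here are the 72 whose symbols begin with MRPL or MRPS followed by a number and whose mean level over all samples was at least 0.5 FPKM (fragments normalised for gene length and for the fragments of the library). They were selected by name and level out of 33994 gene rows, with earlier results of these data known. All 72 symbols that matched the name also passed the level limit. By name, 44 belong to the large and 28 to the small subunit. Structural studies place 2 of the genes named for the small subunit, MRPS30 (also mL65) and MRPS18A (mL66), in the large one, and assign MRPS36 (KGD4) to the 2-oxoglutarate dehydrogenase complex of the citric acid cycle. By structure there were therefore 46 large and 25 small subunit genes. Sequences and genome positions of these genes were not analysed here.

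The 15 vervet monkeys (Chlorocebus sabaeus) were juvenile males born in the wild on St. Kitts, each from a different troop. They carried no labelled genetic modification. Each was trapped, moved to a primate facility and kept in individual housing, the psychosocial stressor of the study. Whole blood was sampled on day 0 in the field (Tp1) and on days 3 and 14 after that exposure began (Tp2 and Tp4), which gave 45 libraries, 15 per day, and no parallel group remained in the wild. Day 0 samples were taken under ketamine and xylazine and the later ones under dexmedetomidine and midazolam, so place and sedative cannot be told apart from the change after day 0.

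Between 13216280 and 31469338 fragments per library fell on genes, and the daily medians were 22963984, 22754349 and 22758495 in order of time. Between libraries, values were scaled by TMM (trimmed mean of M values), which aligns the level of the typical gene. The scaling mattered most on day 14, when the median scaling factor was 0.788 against 1.14 on day 0. Without it the median of the 18753 tested genes fell by 0.36 on the log2 scale on day 14 vs. day 0, and with it the median was −0.02, so changes are given relative to the typical gene. In 5 libraries, 3 of day 0 and 1 of each later day, the median correlation with the other libraries was under 0.94. Of 18 reticulocyte and erythroid markers, 15 rose on day 3 and all 18 on day 14, while 10 of 11 neutrophil markers fell on day 14 and 9 of 9 platelet markers rose on day 3. Of 6 NK and cytotoxic cell markers 5 rose on each later day, and 4 of 6 plasmablast markers rose on day 14. On day 14, 2 of 5 B cell and 3 of 6 monocyte markers fell. The monocyte markers were mixed, with 3 estimates above and 3 below 0 on day 14, and 2 of them rose on day 3. Of 7 T cell markers, 2 rose on day 14 and 1 fell on day 3. Of all tested genes, 23.2% rose and 21.1% fell on day 14. After adjustment for RNA integrity, 1 monocyte marker and no B cell marker fell on day 14, and no T cell marker rose. The NK and plasmablast counts of that day stayed at 5 and 4. In bulk blood, fewer cells of a type and less RNA per cell cannot be told apart.

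All 72 genes were measured well above the limit. The mean FPKM over the 45 libraries ran from 2.68 for MRPL2 to 45.2 for MRPL34, a 16.9-fold range, with a median of 13.4 for the large and 13 for the small subunit by name. In the large subunit MRPL34 (bL34m) was followed by MRPL57 (mL63) with 40.55 FPKM and MRPL11 (uL11m), at the base of the stalk that binds translation factors, with 36.05. In the small subunit the highest were MRPS34 (mS34) with 34.6, MRPS18A with 34.2 and MRPS26 (mS26) with 33.7 FPKM. The lowest were MRPL2 (uL2m, near the peptidyl transferase centre) and MRPL4 (uL4m, on the exit tunnel) with 2.68 and 4.04, and MRPS16 (bS16m) and MRPS2 (uS2m) with 4.32 and 4.70. Neighbours in this order mostly overlapped: on day 0 MRPL57 had 36.3 ± 5.22 scaled FPKM (SD, n = 15), MRPL11 33.6 ± 8.72 and MRPL34 32.9 ± 11.3.

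The order was nearly kept between days. The rank correlation of the mean levels of the 72 genes was 0.98 between days 0 and 3 and 0.95 between days 0 and 14, a description across genes of the same libraries. MRPS16 had the fewest fragments, a median of 58 per library, and MRPL30 the most, with 1160. The smallest number behind any value was 23 fragments, for MRPL2. The median SD of log2 values between animals was 0.31 on day 0, 0.32 on day 3 and 0.27 on day 14 for these genes. Over all tested genes, a set not matched to the members in level, it was 0.43, 0.41 and 0.40.

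On day 14 vs. day 0, 45 of the 72 mitochondrial ribosomal protein genes were up-regulated relative to the typical gene, and 27 did not pass the test. That count rests on the TMM scaling: without it 7 were called higher and 10 lower. Limma, with the animal as a block and p-values adjusted over all tested genes, called the 45 at an adjusted p-value under 0.05. Each of the 45 was higher on day 14, and none was called lower by limma, by limma-voom on the recovered fragments (45 higher) or at an unadjusted p under 0.05 (52 higher). Over all tested genes 44.3% were called, 23.2% as higher and 21.1% as lower, so the share of the members called higher, 62.5%, stood above that background. Their median log2 fold change was 0.27, against −0.02 over all tested genes, and 69 of 72 estimates were above 0. Among the 9128 tested genes whose mean level lay within the range of the members, 27.1% were called higher and the median was 0.01.

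**Figure D1:**
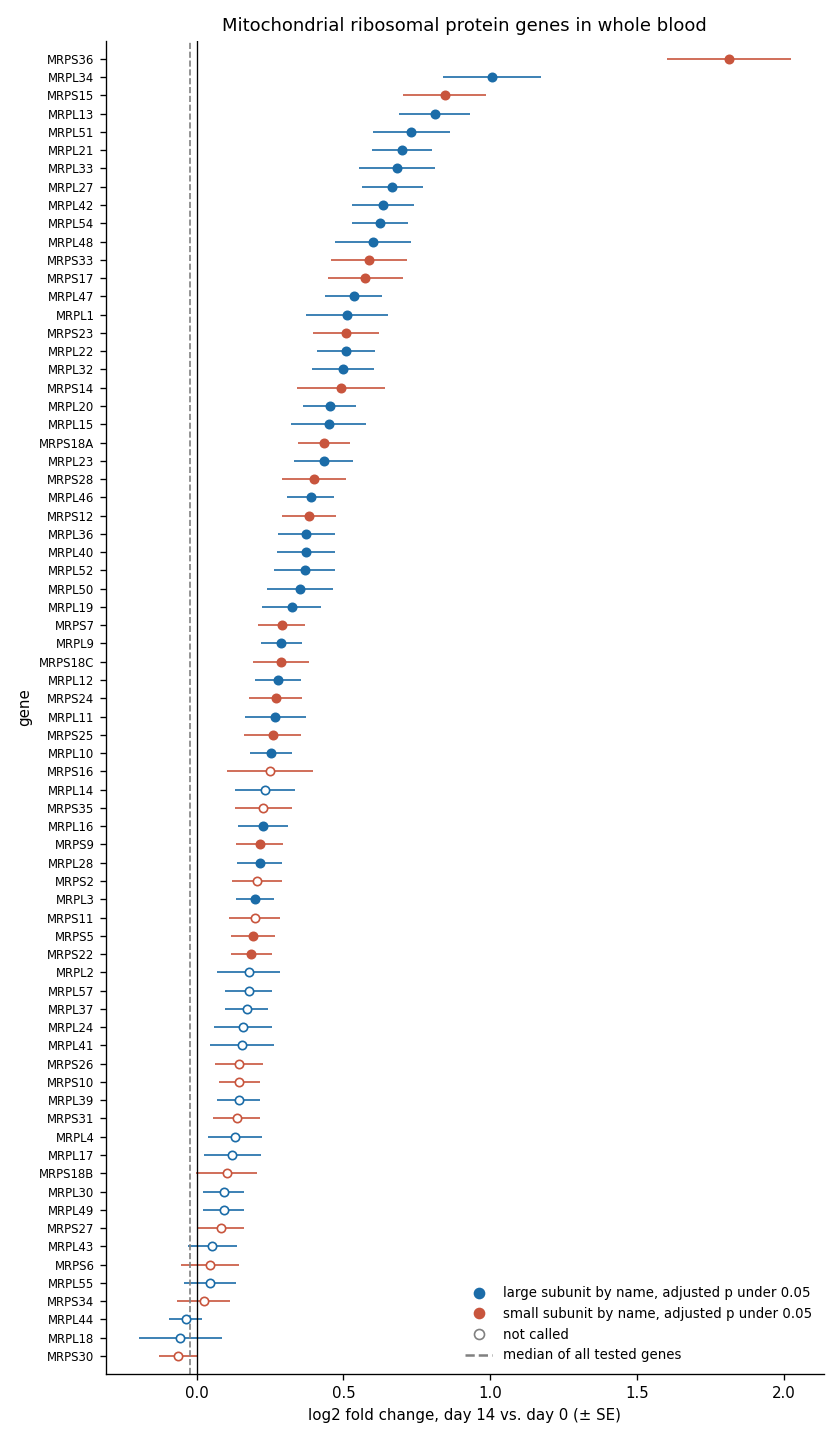
Log2 fold change with its standard error (x axis) of each of the 72 genes (y axis), day 14 against day 0, coloured by subunit and filled where limma called the gene. MRPS36 stands apart at 1.81, the 45 called genes are all to the right of 0, and MRPS30, MRPL18 and MRPL44 at the bottom lie slightly below 0.

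MRPS36 rose most. On day 0 its scaled FPKM had a lowest value of 4.995, a median of 9.07 and a highest of 34.3. Day 3 values were 3.94, 12.97 and 61.9, and those of day 14 were 11.9, 30.4 and 90.8. All 15 day 14 samples were above the day 0 median and 7 were above the highest day 0 sample, which came from an animal that was highest on each day. The log2 fold change was 1.81 (SE 0.21, adjusted p = 2.58e-07 from limma, a 3.52-fold rise) and all 15 animals moved upward.

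The next largest rise was that of MRPL34, a small protein of the large subunit core. Its lowest, median and highest scaled FPKM were 18.4, 33.8 and 51.9 on day 0. They were 21.2, 37.7 and 90.5 on day 3, and day 14 gave 26.5, 59.2 and 104.5. Of the day 14 samples 11 lay above every day 0 sample. The log2 fold change was 1.01 (SE 0.17, adjusted p = 1.59e-05, limma), higher in 14 of 15 animals. MRPS15 (uS15m), which binds small subunit rRNA, went from 17.7, 23.0 and 30.7 on day 0 to 19.7, 39.6 and 71.9 on day 14, and 12 of its day 14 samples were above the whole day 0 range. Its log2 fold change was 0.84 (SE 0.14, adjusted p = 1.63e-05), higher in 13 animals.

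MRPL13 (uL13m), a large subunit protein with a bacterial counterpart, had 5.24, 7.997 and 14.2 scaled FPKM on day 0 (lowest, median, highest) and 8.65, 15.3 and 20.7 on day 14. It rose by a log2 fold change of 0.81 (SE 0.12, adjusted p = 3.21e-06, limma), with 9 day 14 samples above the day 0 range. MRPL21 (bL21m) had 8.32, 10.6 and 16.7 on day 0 and 10.2, 16.7 and 27.3 on day 14, a log2 fold change of 0.70 (SE 0.10, adjusted p = 2.76e-06). Day 14 was higher in 15 of 15 animals for 4 genes, MRPS36, MRPL21, MRPL42 and MRPL54. For MRPL27 (bL27m), whose bacterial relative reaches toward the peptidyl transferase centre, 12 day 14 samples lay above the day 0 range of 12.3 to 23.7, the most of any large subunit gene, and the log2 fold change was 0.67 (SE 0.10, adjusted p = 6.68e-06).

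**Figure D2:**
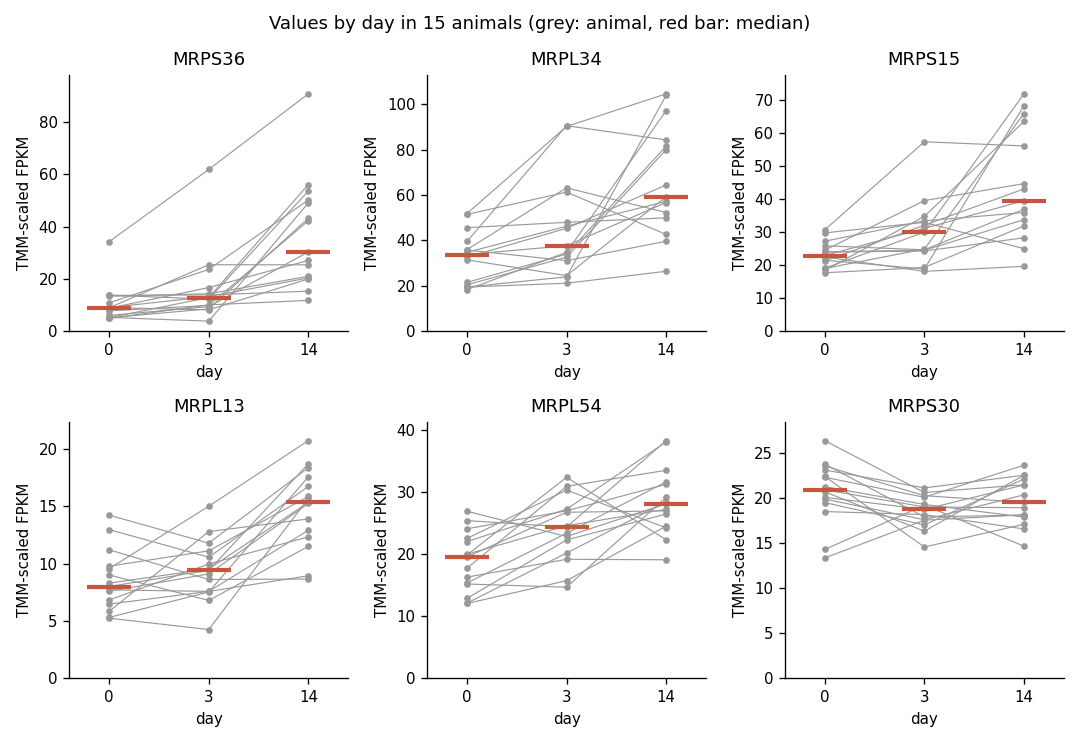
TMM-scaled FPKM (y axis, from 0) on days 0, 3 and 14 (x axis) for 6 genes, with a grey line for each of the 15 animals and a red bar for the median. The day 14 medians of MRPS36, MRPL34, MRPS15, MRPL13 and MRPL54 lie above those of day 0, while MRPS30 stays near 20 scaled FPKM, and the days overlap in each panel.

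The days overlapped for each of the 72 genes, since none had its whole day 14 range above its day 0 range. Among the other genes with a low adjusted p-value, MRPL51 (mL51), named after its values were seen, had a log2 fold change of 0.73 (SE 0.13). MRPS17 (uS17m) rose from 4.11 ± 1.40 to 6.09 ± 1.83 scaled FPKM (SD, n = 15; log2 fold change 0.58, adjusted p = 4.42e-04 from limma). MRPS18A, a gene named for the small subunit, rose from 29.8 ± 6.08 to 40.0 ± 6.49 (0.43, adjusted p = 1.92e-04). Both lost the call without TMM (MRPS17 0.16, adjusted p = 0.371, and MRPS18A 0.01, adjusted p = 0.931) and with RNA integrity as a covariate (adjusted p = 0.0959 and 0.0658). Of the 72 genes, 29 (40.3%) were higher in at least 13 of 15 animals, against 13.6% of all tested genes.

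At the other end, 27 genes were not called on day 14 vs. day 0, among them several of the most abundant. MRPS34, in which mutations cause Leigh syndrome in humans, had 32.3 ± 4.53 scaled FPKM on day 0 and 33.3 ± 7.04 on day 14 (log2 fold change 0.02, SE 0.09). MRPS26 and MRPL57 had log2 fold changes of 0.15 and 0.18 with adjusted p = 0.156 and 0.0713. Of the 5 genes below 5 FPKM, the 4 named above were not called, with log2 fold changes between 0.13 for MRPL4 and 0.25 for MRPS16. The fifth, MRPL1 (uL1m, of the L1 stalk) with 4.085 FPKM, rose by 0.51 (adjusted p = 0.0036, limma), a call lost without TMM (0.623) and with RNA integrity as a covariate (0.123). Only 3 genes had an estimate below 0: MRPS30 (−0.06), MRPL18 (uL18m, in the central protuberance, −0.05) and MRPL44 (mL44, −0.04). MRPL44 varied least of these, with 11.1 ± 0.758 scaled FPKM on day 0 and 10.9 ± 1.31 on day 14.

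Which direction these counts take depends on the scaling. Relative to the fragments of the library alone, without TMM, 7 genes were called higher and 10 lower, where 9.28% of all tested genes were called higher and 49.8% lower. The 7 that rose on that scale too were MRPS36, MRPL34, MRPS15, MRPL13, MRPL21, MRPL33 and MRPL27. The other 38 of the 45 lost their call without TMM, and 22 of them had an estimate below 0 there. The 10 that fell included MRPS30, MRPS34, MRPL18 and MRPL44. The median of the members was then −0.16, which lay 0.21 above the median of all tested genes, and with TMM it lay 0.29 above. The members' share of all fragments on genes had a median of 0.136% on day 0 and 0.143% on day 14, with ranges of 0.0788% to 0.188% and 0.0693% to 0.179% that overlapped. The calls on the TMM scale thus describe a rise against the typical gene. RNA integrity numbers were higher on the later days. With that number as a covariate beside the animal, 15 genes were called higher, as were 2445 of the 18753 tested genes, and the median of the members was 0.14. The other 30 lost their call in that fit, with estimates that stayed above 0.

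On day 3 vs. day 0 few of these genes had changed. Limma called 4 of 72 (5.56%), all higher, where 19.6% of all tested genes were called, 10.3% as higher and 9.26% as lower, so the share of members called was below the background. At an unadjusted p under 0.05, 18 genes were higher and 2 lower, and limma-voom called 3, all higher. The median log2 fold change was 0.08, against 0.01 over all tested genes, with 56 estimates above and 16 below 0. Without the animal as a block, 2 genes were called higher, MRPL54 and MRPL9, against 6.12% of all tested genes.

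MRPL54 (mL54), a mitochondria-specific protein of the large subunit, had the lowest adjusted p-value. Its lowest, median and highest scaled FPKM were 12.1, 19.6 and 27.0 on day 0. They were 14.7, 24.4 and 32.4 on day 3, and day 14 gave 19.1, 28.2 and 38.4. Day 3 exceeded day 0 in 12 of 15 animals (log2 fold change 0.37, SE 0.09, adjusted p = 0.00626 from limma), and this was the 1 gene of the 72 called in all 3 comparisons. Its call on day 14 vs. day 3 was near the limit (adjusted p = 0.0461, limma). That call was lost without the animal as a block (0.134), without TMM (0.333) and with RNA integrity as a covariate (0.26). MRPL9 (bL9m), at the base of the L1 stalk, went from 10.1 ± 1.48 to 11.7 ± 1.05 scaled FPKM (0.22, SE 0.07, adjusted p = 0.0232). MRPL12 (bL12m), the stalk protein that recruits translation factors and also binds the mitochondrial RNA polymerase, went from 9.35 ± 1.33 to 10.97 ± 2.06 (0.22, SE 0.08, adjusted p = 0.0465). MRPS5 (uS5m), near the channel by which mRNA enters, went from 11.3 ± 1.72 to 13.3 ± 1.94 (0.23, SE 0.07, adjusted p = 0.0265). All 4 were also called on day 14 vs. day 0. None of the 4 kept that call without TMM, where the estimates of MRPL9, MRPL12 and MRPS5 were below 0 (−0.13, −0.14 and −0.23). With RNA integrity as a covariate MRPL12 and MRPS5 lost it (adjusted p = 0.306 and 0.516, limma).

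MRPL9, MRPL12 and MRPS5 lost their day 3 call without TMM (adjusted p = 0.473, 0.47 and 0.306, limma) and with RNA integrity as a covariate (0.069, 0.191 and 0.106), while MRPL54 kept it (0.0381 and 0.039). The calls on day 3 also rested on single animals in part. MRPL54 stayed called whichever animal was omitted, but MRPL12 lost its call in 12 of the 15 cases, MRPS5 in 6 and MRPL9 in 4. Without animal 10 or without animal 14 only 2 genes were called, in the second case MRPL54 as higher and MRPS18C as lower. Without the 5 libraries that correlated least with the others, the 3 genes called on day 3 vs. day 0 were MRPL54 and MRPS36 as higher and MRPS30 as lower.

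Most of the rise came between day 3 and day 14. Limma called 28 of 72 genes (38.9%) on day 14 vs. day 3, all higher, where 24.0% of all tested genes were called, 14.2% as higher and 9.85% as lower. None was lower at an unadjusted p under 0.05 (43 higher) or by limma-voom (29 higher). The median was 0.22, against −0.02 over all tested genes. Each of the 28 was also called on day 14 vs. day 0, a comparison that shares the day 14 samples. Without the animal as a block 16 were called higher, against 8.51% of all tested genes. Without TMM 2 were called higher, MRPS36 and MRPL33, and 16 lower, where 4.99% of all tested genes were called higher and 46.2% lower. After adjustment for RNA integrity 13 were called higher, beside 7.75% of all tested genes.

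Several genes hardly differed between days 0 and 3 and were high on day 14. MRPL33 (bL33m) had lowest, median and highest scaled FPKM of 5.28, 7.39 and 15.4 on day 0. They were 5.49, 7.98 and 16.3 on day 3, and day 14 gave 6.49, 13.3 and 21.6. It was higher on day 14 than on day 3 in all 15 animals (log2 fold change 0.69, SE 0.13, adjusted p = 4.80e-04 from limma), and its log2 fold change on day 3 vs. day 0 was −0.01. MRPL47 (uL29m), beside the exit of the peptide tunnel, had means of 7.79 ± 1.51, 8.03 ± 2.28 and 11.3 ± 2.04 on days 0, 3 and 14, and was higher on day 14 than on day 3 in 15 of 15 animals (0.52, SE 0.10, adjusted p = 4.59e-04). MRPL42 (mL42) had 13.5 ± 3.29, 14.6 ± 6.42 and 21.2 ± 6.48, with the lowest adjusted p-value in the large subunit in this comparison (0.59, SE 0.10, adjusted p = 3.09e-04). MRPL13 rose in all 15 animals in this interval by 0.66 (SE 0.12). MRPS33 (mS33) had 6.99 ± 2.79, 7.37 ± 2.69 and 10.2 ± 3.12 (0.48, SE 0.13, adjusted p = 0.00954). It lost this call without the animal as a block (adjusted p = 0.0685, limma) and with RNA integrity as a covariate (0.065).

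MRPS18C was lowest on day 3. It had 10.1 ± 2.67 scaled FPKM on day 0, then 8.50 ± 2.4, and 12.2 ± 2.43 on day 14. The day 3 value was lower in 10 of 15 animals, a difference that was not called (−0.25, SE 0.10, adjusted p = 0.0618, limma), and the rise from day 3 to day 14 was called (0.54, SE 0.10, adjusted p = 2.98e-04) and seen in 14 animals. MRPS18A, MRPS18B and MRPS18C all descend from the single bacterial protein S18, and each ribosome holds all of them at separate places. MRPS18A had means of 29.8, 33.7 and 40.0 over the 3 days, and MRPS18B had 5.49 ± 0.892, 6.10 ± 1.01 and 5.95 ± 1.25 with no comparison called. On day 14 vs. day 0 the log2 fold changes were 0.43 for MRPS18A, 0.10 for MRPS18B (SE 0.10) and 0.29 for MRPS18C. The differences between these relatives were not tested.

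By subunit, the counts on day 14 were higher for the large one. On day 14 vs. day 0, 29 of 44 large (65.9%) and 16 of 28 small subunit genes (57.1%) by name were called higher, beside 23.2% of all tested genes, with medians of 0.31 and 0.24. Against day 3, 21 of 44 (47.7%) and 7 of 28 (25%) were higher on day 14, beside 14.2% of all tested genes, with medians of 0.23 and 0.20. The day 3 calls were 3 large and 1 small subunit gene, and the medians were 0.07 and 0.10. The large median thus exceeded the small one by 0.07 and 0.03 on day 14 against days 0 and 3 and lay 0.03 below it on day 3. Without TMM, 5 large subunit genes were called higher and 6 lower for day 14 against day 0, and 2 and 4 small ones, beside 9.28% and 49.8% of all tested genes. With RNA integrity as a covariate 12 large and 3 small ones were higher, beside 13% of all tested genes. Placing MRPS30 and MRPS18A in the large subunit and leaving out MRPS36 gave 30 of 46 large and 14 of 25 small subunit genes called for day 14 against day 0, with a difference of 0.08.

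Within animals the subunits went together. On day 14 vs. day 0 the median change of the large subunit genes ranged over the 15 animals from −0.08 to 0.86 and that of the small subunit genes from −0.18 to 0.65. The median over all members was above 0 in 13 of 15 animals, and the large minus small difference was above 0 in 11, with a mean of 0.06 ± 0.02 (SE, n = 15) and a range from −0.08 to 0.20. No test was made of it. The difference was also above 0 in 11 of 15 animals on day 14 vs. day 3 (0.05 ± 0.02, SE) and in 10 on day 3 vs. day 0 (0.00 ± 0.02, SE). Animals 5 and 6 had members' medians of −0.07 and −0.10 on day 14 vs. day 0. Animals 14 and 12 had the highest, 0.77 and 0.70, and 67 of 72 genes higher in each. These values rest on the TMM scaling. Without it the members' median on day 14 vs. day 0 was above 0 in 7 animals and below 0 in 8, and animals 14 and 12 had −0.20 and −0.07.

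**Figure D3:**
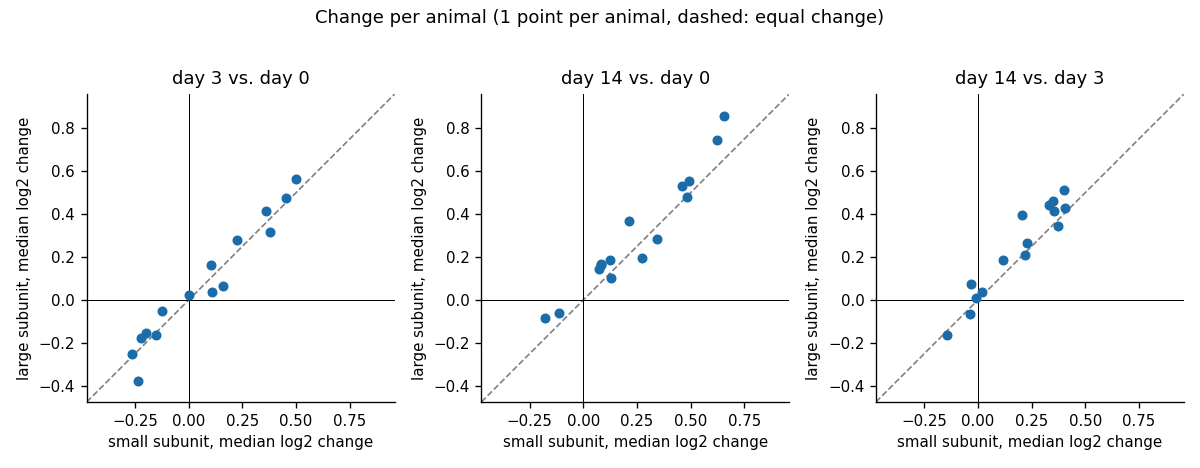
Median log2 change of the 28 small (x axis) and the 44 large subunit genes (y axis) by name in each of 15 animals, 1 panel per comparison, with a dashed line of equal change. The points follow the dashed line, and on day 14 vs. day 0 they run from below 0 to above 0.6 on both axes with 11 of 15 above the line.

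After removal of day and animal means, the mean correlation between pairs of the 72 genes over the 45 values was 0.40, against 0.00 between pairs of all tested genes. It was 0.40 between large subunit genes, 0.38 between small subunit genes and 0.40 between a large and a small one, so the subunits did not separate. These correlations share libraries and depth and are descriptions. MRPL11 followed the other members most closely, with a mean r of 0.57, and MRPS27 (mS27) least, with −0.01. MRPS36 had a mean r of 0.18 with the others.

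Of genes with a counterpart in the bacterial ribosome, 31 of 44 (70.5%, median 0.28) were called on day 14 vs. day 0, and of mitochondria-specific ones 13 of 27 (48.1%, median 0.19), all higher, beside 23.2% of all tested genes. Without TMM it was 6 higher and 4 lower against 0 higher and 6 lower, beside 9.28% and 49.8% of all tested genes. With RNA integrity as a covariate 10 and 4 were higher, beside 13%. In the comparison with day 3 the order of the shares turned, with 16 of 44 (36.4%) and 11 of 27 (40.7%) higher, beside 14.2% of all tested genes. The difference was not tested in either case. By site in the large subunit, the 4 stalk proteins measured (MRPL1, MRPL10, MRPL11 and MRPL12) were all called higher on day 14 vs. day 0, beside 23.2% of all tested genes, with log2 fold changes from 0.25 to 0.51. None of the 4 was called without TMM or with RNA integrity as a covariate. In the central protuberance 4 of 6 were called, with a range from −0.05 for MRPL18 to 0.67 for MRPL27. Without TMM 1 of these 6 was higher and 2 were lower, and with RNA integrity as a covariate 1 was higher. Around the exit of the peptide tunnel 3 of 6 were called, from −0.04 for MRPL44 to 0.53 for MRPL47. Without TMM none of these 6 was higher and 1 was lower, and with RNA integrity as a covariate 2 were higher.

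MRPS30, large by structure, had the lowest estimate of the 72 genes on day 14 vs. day 0. Its scaled FPKM had a lowest value of 13.4, a median of 21.0 and a highest of 26.4 on day 0. They were 14.6, 18.8 and 21.2 on day 3, and day 14 gave 14.7, 19.6 and 23.7. On day 3 it was lower in 13 of 15 animals (log2 fold change −0.14, SE 0.07, adjusted p = 0.128, limma), and 1 day 3 sample was above the day 0 median. Without the 5 libraries that correlated least with the others, it was called lower on day 3 (−0.23, adjusted p = 0.0125) and on day 14 (−0.16, adjusted p = 0.0300). MRPL18 had 1 high sample on day 0 (48.2 scaled FPKM beside a median of 11.3), and 13 of its day 14 samples were above the day 0 median although its log2 fold change was −0.05.

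The correlation with markers of red cell precursors varied widely among these genes. The summed level of the 18 reticulocyte and erythroid markers ranged from 573.8 to 26310 scaled FPKM on day 0. Its range was 4266 to 49270 on day 3, and 8494 to 71680 on day 14. With day and animal means removed, the correlation of MRPS36 with the mean of these markers was 0.90 (Spearman's rho 0.88, and r = 0.88 without the 2 values farthest from the median, over 45 values). It was 0.81 for MRPL34, 0.78 for MRPS15, 0.65 for MRPS18A and 0.60 for MRPS16, and 9 of 72 genes (12.5%) were above 0.5, a share near the 10.8% of all tested genes. The median over the 72 was 0.06, and the range began at −0.49 for MRPS27. The 9 genes above 0.5, grouped after their values were seen, had a median log2 fold change of 0.68 on day 14 vs. day 0 and 8 of them were called. The other 63 had a median of 0.23 and 37 were called, where 23.2% of all tested genes were called higher. The share for all tested genes with r above 0.5 is not given here. By animal, the markers' mean change on day 14 vs. day 0 was above 0 in 14 of 15 and the members' median in 13. Most signs were thus bound to agree, and 12 of 15 did. The exceptions were animals 5, 6 and 13. In animal 13 the markers' mean fell by 0.55 on the log2 scale while the members' median was 0.35. In animal 6 the markers' mean change was 2.51 while the members' median was −0.10, and in animal 5 they were 1.70 and −0.07. In animals 9, 12 and 14, which had the highest members' medians (0.53, 0.70 and 0.77), the markers' mean change was 4.97, 2.71 and 4.32. In animals 8 and 3 the markers' mean change was 4.68 and 3.06, while the members' medians were 0.13 and 0.11. Without TMM the members' median was above 0 in 7 animals and below 0 in 8. It was then −0.38, −0.07 and −0.20 in animals 9, 12 and 14. The part of red cell precursors in the rise was not tested.

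**Figure D4:**
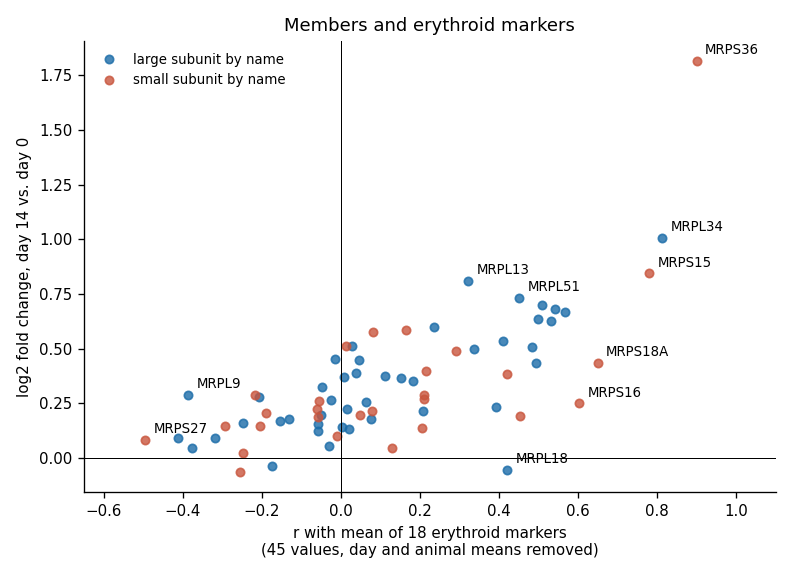
Log2 fold change on day 14 vs. day 0 (y axis) of each of the 72 genes against its correlation with the mean of 18 erythroid markers (x axis, 45 values with day and animal means removed), coloured by subunit. MRPS36, MRPL34 and MRPS15 lie at the upper right with r of 0.90, 0.81 and 0.78, and many genes with r near 0 also lie above 0 on the y axis.

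These genes are short, with a median length of 1116 bases in the FPKM calculation against 2644 over all tested genes, and short genes as a whole had higher estimates on day 14. Among tested genes over 800 and up to 1200 bases the median log2 fold change on day 14 vs. day 0 was 0.13 and 34.9% were called higher. The 32 members of that length had a median of 0.36 and 21 were called. Among genes over 1200 and up to 2000 bases the median was 0.06 with 29.2% called higher, and for the 24 members it was 0.22 with 16 called. The 10 members of up to 800 bases had a median of 0.33 beside 0.21 for all genes of that length, with 6 called higher beside 39.6%. For the 6 members over 2000 bases it was 0.14 beside −0.06, with 2 called beside 17.6%. The members' medians thus lay above those of all genes in each length class. The part of length in the rise was not tested.

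**Figure D5:**
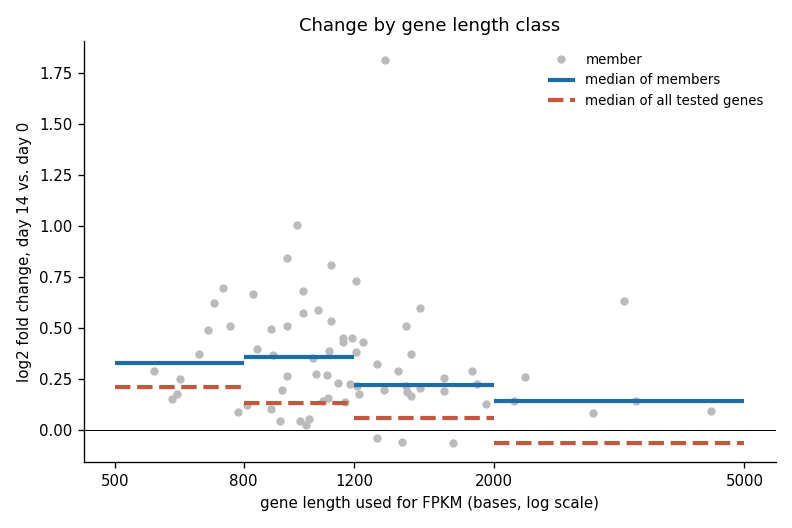
Log2 fold change on day 14 vs. day 0 (y axis) of all 72 genes against gene length in bases (x axis, log scale), with the median of the members (blue) and of all tested genes (red, dashed) in 4 length classes. The red medians fall from class to class, and the blue lines at 0.33, 0.36, 0.22 and 0.14 lie above the red ones at 0.21, 0.13, 0.06 and −0.06.

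Further lists of the same machinery were read against the shares of all tested genes on day 14 vs. day 0, 23.2% higher and 21.1% lower with TMM and 9.28% and 49.8% without it. Of 6 further mitoribosomal proteins with other names, 4 were called higher and none lower (median 0.32), and without TMM none was higher and 2 were lower. ICT1, a peptidyl-tRNA hydrolase built into the large subunit, rose from 6.72 ± 1.92 to 9.81 ± 2.23 scaled FPKM (log2 fold change 0.56, SE 0.10, adjusted p = 4.60e-05 from limma). Of 25 tested genes of mitoribosome assembly and rRNA modification, 7 were called higher and 2 lower, with a median of 0.11. The share called, 36%, was below the 44.3% of all tested genes, and without TMM 2 were higher and 11 lower. ERAL1, a GTPase that chaperones the small subunit rRNA, had the lowest adjusted p-value and rose from 9.41 ± 4.55 to 21.7 ± 10.6, with 14.5 ± 9.33 between them on day 3 (1.15, SE 0.16, adjusted p = 1.31e-06 for day 14 vs. day 0).

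Of 13 tested mitochondrial translation and mRNA factors 5 were called higher and none lower, with a median of 0.10, and without TMM 1 was higher and 6 lower (median −0.32). SLIRP, which stabilises mitochondrial mRNA together with LRPPRC, rose from 5.51 ± 2.49 to 10.2 ± 4.43 scaled FPKM (0.87, SE 0.20, adjusted p = 8.49e-04, limma). Among 19 mitochondrial aminoacyl-tRNA synthetases, which charge tRNA for the mitoribosome, 2 were called higher and 3 lower and the median was 0.01. Without TMM none was higher and 13 were lower. FARS2, the phenylalanine enzyme, fell from 6.57 ± 1.82 to 4.69 ± 1.095 (−0.47, SE 0.09, adjusted p = 1.62e-04). Of 9 genes of mitochondrial DNA transcription and replication, 3 were called higher, among them SSBP1, the single-strand DNA binding protein (0.42, SE 0.10, adjusted p = 0.00139), and 1 lower, and without TMM 4 were lower and none higher. Among 9 nuclear regulators of mitochondrial genes, 1 was called higher and 2 lower with a median of −0.17, and without TMM 7 were lower and none higher. NRF1, a transcription factor of many genes for mitochondrial proteins, was lower on day 14 in 15 of 15 animals and fell from 11.1 ± 1.19 to 8.08 ± 0.860 (−0.46, SE 0.07, adjusted p = 2.38e-06). With RNA integrity as a covariate, beside 13% of all tested genes higher and 9.08% lower, the counts higher were 1 of the 6 proteins with other names, 2 of the assembly genes and 1 of the translation factors. No gene of the synthetase and mitochondrial DNA lists was then higher, and 1 regulator was. Lower in that fit were 1 assembly gene, 2 synthetases and 2 regulators. SSBP1 lost its call there (adjusted p = 0.141) and without TMM (0.971), and ICT1 lost it without TMM (0.384). The 13 mRNAs encoded by mitochondrial DNA were not analysed here.

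For the cytosolic ribosome, 51 of 72 tested protein genes were called higher on day 14 vs. day 0 (median 0.48), beside 23.2% of all tested genes. Against day 3 it was 48 (median 0.56), and none was called on day 3 by limma, by limma-voom or at an unadjusted p under 0.05 (median −0.01). For the nuclear subunits of oxidative phosphorylation 45 of 56 (0.46), 32 (0.36) and 7 (0.14) were called in the same order, the last being 12.5% beside 10.3% of all tested genes. With TMM no gene of either group was called lower by limma or limma-voom, and 1 was lower at an unadjusted p under 0.05. Without TMM, 17 cytosolic genes were called higher and 3 lower for day 14 against day 0, and 15 and 0 against day 3. For oxidative phosphorylation it was 17 higher and 6 lower against day 0, and 12 and 9 against day 3. With RNA integrity as a covariate 12 cytosolic and 14 oxidative phosphorylation genes were called higher on day 14 vs. day 0, beside 13% of all tested genes. The mean correlation between pairs, with day and animal means removed, was 0.74 for the cytosolic and 0.44 for the oxidative phosphorylation genes, beside 0.40 for the mitochondrial ribosomal protein genes. The differences between the 3 groups were not tested.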

How the data were processed

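The authors aligned paired-end reads of stranded libraries, depleted of ribosomal and globin RNA, with STAR to Chlorocebus_sabeus 1.1, and counted fragments per gene with HTSeq. Base calling used bcl2fastq 2.17 per the submitters' processing notes, which list no other versions. The deposited values are FPKM, 1 table per library. Each value above 0 was a whole multiple (tolerance 0.02) of the value of 1 fragment, which gave the fragments, the depth and the gene lengths. How reads shared with pseudogenes of these genes were treated is not given in the sources used here.

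FPKM were scaled by TMM (30% of log ratios and 5% of levels trimmed), 0.1 was added and log2 values were fitted with limma 3.58.1 in R 4.3.3 (moderated test with trend), 1 mean per day and the animal as a block, over 18753 genes with more than 0.5 CPM in at least 3 libraries. Fold changes are on this log2 scale. Calls use a Benjamini-Hochberg adjusted p under 0.05 over all tested genes. The animal label pairs samples: with day means removed, the mean r was 0.33 between samples of 1 animal and −0.04 between animals. The fit was also run on simulated data in which few genes changed and the typical gene did not shift, so that run cannot bear on the choice of scaling.

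The members, the lists and the comparisons were chosen with earlier results of these data known. Named genes were the 3 highest and 2 lowest by level in each subunit, the 4 called genes with the lowest adjusted p in each comparison and subunit, called genes moving against the majority, MRPS30, MRPS36 and the MRPS18 relatives, and the leading called gene on day 14 vs. day 0 of each pathway list. Others named for their values were chosen after those were seen. RNA integrity numbers came from the study's sample table. Groups of 15 were not tested for outlying samples.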

Additional observations from a re-analysis of the deposited data

How the results depend on the processing

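The medians of the members kept their sign in each comparison under median-of-ratios scaling, a pseudocount of 1 or 0.01, no filter on low values, limma-voom on the recovered fragments, RNA integrity as a covariate, and without the 5 libraries that correlated least with the others (a choice made after seeing the data). Without TMM they reversed to −0.16 for day 14 against day 0 and −0.16 for day 14 against day 3, and 17 and 18 genes were called. Adjusted for RNA integrity, 2 genes were called for day 3 against day 0 (1 higher and 1 lower, beside 8.19% and 7.19% of all tested genes), 15 for day 14 against day 0 (beside 13% higher) and 13 for day 14 against day 3 (beside 7.75% higher). Without the replicate block 2, 38 and 16 genes were called, all higher, beside 6.12%, 18.8% and 8.51% of all tested genes called higher. With no filter on low values, where 33635 genes were tested, 1 was called for day 3 against day 0 (beside 4.43% higher and 4.09% lower) and 18 for day 14 against day 3 (beside 5.67% and 5.21%). Leaving out each animal in turn gave 2 to 6, 34 to 51 and 19 to 32 called genes, medians of 0.03 to 0.11, 0.22 to 0.30 and 0.18 to 0.24, and large minus small differences of −0.06 to −0.01, 0.04 to 0.10 and 0.03 to 0.05. The count on day 14 vs. day 3 fell to 19 without animal 1, and to 21, 20 and 21 without animals 4, 8 and 9, with 28 in the full data. Without the 5 libraries the large minus small difference on day 3 vs. day 0 turned to 0.0099, and 38 genes were called on day 14 vs. day 0. In that comparison the estimates of 46 of the 72 genes changed sign without TMM, 22 of them called with it, and 11 with RNA integrity as a covariate, none of them called without it. Among these, MRPS18B reversed to −0.31 and MRPS18C to −0.13 without TMM, and MRPS18B to −0.15 with the RNA integrity number. The cause of these shifts was not tested.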

Other observations

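Correlations with the mean of other cell type markers, with day and animal means removed, are descriptions over 45 values that share libraries. With 7 T cell markers 4 of 72 genes had r above 0.5 (5.56%, against 3.69% of all tested genes): MRPS9 (0.56), MRPL22 (0.54), MRPL2 (0.52) and MRPL14 (0.51). With 6 NK and cytotoxic cell markers it was 2 (2.78%, against 1.14%), MRPL10 (r = 0.62, rho 0.48, and 0.46 without the 2 values farthest from the median) and MRPL30 (0.53, rho 0.40). With 5 B cell markers it was 1 (1.39%, against 7.29%), MRPS27, with r = 0.75 (rho 0.78, and 0.77 without the 2 farthest values). MRPL34, MRPS18A, MRPS36 and MRPS15, which had the highest r with the erythroid markers, were the 4 genes below −0.5 with the B cell markers (−0.61, −0.58, −0.57 and −0.53), as were 10.5% of all tested genes. With 6 monocyte markers 6 genes were below −0.5, against 6.05% of all tested genes, the lowest being MRPS9 (−0.61) and MRPS30 (−0.59). With 11 neutrophil markers it was MRPS27 (−0.68) and MRPS30 (−0.52), against 7.25%. With 9 platelet markers MRPS36 had 0.50 and MRPL9 −0.56, where 4.78% of all tested genes were above 0.5 and 2.48% below −0.5. No gene of the 72 reached an absolute r of 0.5 with the plasmablast markers, where 0.645% of all tested genes were above 0.5 and 0.517% below −0.5. The genes were named after their values were seen.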
